A study of Rattus norvegicus with 5 samples.

Results

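The cells described here are the stromal cells of 2 libraries of cultured neonatal rat ventricular cells, 1 infected with Adeno-TBX18 and 1 with Adeno-GFP, both for 3 days. They were chosen by their measured levels: a stromal cell is a barcode with at least 500 detected genes in which the summed level of 3 fibrillar collagen genes (S, the level in CPM, counts scaled to a fixed total per cell, of Col1a1, Col1a2 and Col3a1) is more than 2 times the summed level of 3 myocyte genes (M, the CPM of Tnnt2, Actc1 and Myh6). The rule took 2919 of 8128 cells of the GFP library and 2922 of 6489 cells of the TBX18 library, 5841 of the 36996 cells of the whole series. Both cultures were primary ventricular cells, myocytes and non-myocytes together, from wild type Sprague Dawley rats at postnatal day 2 (P2), so that the GFP control carries an adenovirus too. Cells came off the dish with trypsin and went through a droplet-based 3' kit that tags each captured RNA with a unique molecular identifier (UMI). GFP and TBX18 cultures of 14 days, from the same strain and age, are set beside the day 3 values where stated. The labels do not say how many animals or dishes stand behind a library.

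Cardiac stromal cells, mostly fibroblasts, make the fibrillar collagens that form the fibrous matrix of the ventricle wall. Col1a1 and Col1a2 encode the chains of type I collagen, and Col3a1 encodes type III collagen. Tnnt2 encodes cardiac troponin T, Actc1 cardiac alpha-actin and Myh6 alpha myosin heavy chain, all parts of the sarcomere, the contractile unit of a myocyte. TBX18 is a T-box transcription factor that takes part in forming the sinoatrial node, the heart's pacemaker, and is found in the epicardium, a layer that gives rise to many cardiac fibroblasts during development. By its title, the series asks how TBX18 turns ventricular myocytes into pacemaker cells, and the stromal cells share the dish with them.

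With 1 library in each group, none of the differences reported here could be checked against replicates. No test between groups was made, and culture, library and virus cannot be told apart. Intervals are exact 95% intervals that cover counting error only. The stromal cells held 76539205 UMIs with GFP and 88218828 with TBX18, at a median of 24535 and 28102.5 UMIs per cell. The 2 libraries shared 15 cell barcodes, of which 0 were stromal in both. Genes appear in the tables as Ensembl IDs only, and 0 of 15240 IDs could be matched to the RefSeq gene table. Names are therefore used for the 6 genes of the rule and for the virus features alone. Markers of mural, endothelial, blood or epicardial cells could not be read, so that "stromal" rests on the 3 collagen genes and on nothing else.

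RefSeq's promoter table (build GRCr8) held 4 of the 6 genes of the rule. The 250 bases before the annotated start are printed 5' to 3' for the gene with the highest ratio among the 6, for the myocyte gene with a T-box match, and for the collagen gene closest to an equal level. Capitals mark the T-box sequence AGGTGTGA or its core GGTGTG, the TATA sequence TATAAA and the CCAAT box, searched on both strands; the core lies inside AGGTGTGA. Actc1 lies on the minus strand (chr3:121271828-121272077), Tnnt2 on the plus strand with 2 annotated starts, of which the one at chr13:49823809-49824058 is shown, and Col1a2 on the plus strand (chr4:33518307-33518556).
Actc1: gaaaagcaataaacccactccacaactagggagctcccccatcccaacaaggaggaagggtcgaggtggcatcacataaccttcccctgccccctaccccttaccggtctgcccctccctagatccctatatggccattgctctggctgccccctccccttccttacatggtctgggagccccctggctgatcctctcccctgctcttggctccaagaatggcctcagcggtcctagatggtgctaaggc
Tnnt2: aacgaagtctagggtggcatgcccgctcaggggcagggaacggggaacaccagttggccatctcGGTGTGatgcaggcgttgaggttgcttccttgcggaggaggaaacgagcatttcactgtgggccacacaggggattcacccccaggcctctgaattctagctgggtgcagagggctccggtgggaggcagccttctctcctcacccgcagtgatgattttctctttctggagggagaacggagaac
Col1a2: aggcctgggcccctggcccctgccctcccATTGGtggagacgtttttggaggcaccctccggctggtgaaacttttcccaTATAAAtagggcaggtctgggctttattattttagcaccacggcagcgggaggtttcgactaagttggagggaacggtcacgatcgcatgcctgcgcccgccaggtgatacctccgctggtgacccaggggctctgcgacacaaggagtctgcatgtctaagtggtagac
Actc1 held none of these sequences. The Tnnt2 window shown held GGTGTG from 186 to 181 bases before the start, which 15.4% of 33469 promoter windows of this length also held on either strand. The windows of the other Tnnt2 start and of Myh6 held none of these sequences, so the Tnnt2 start shown is the one with the match. AGGTGTGA was in none of the 4 genes' windows and in 0.959% of all windows. Col1a2 held TATAAA from 170 to 165 bases before the start, as did 12.9% of windows, and CCAAT on the opposite strand from 221 to 217 bases before it, as did 34.0% of windows. These are matches of letters, and the data hold no measure of binding.

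Stromal cells made up 35.9% (34.9 to 37.0, Clopper-Pearson) of the GFP library and 45.0% (43.8 to 46.3) of the TBX18 library. The rule fixes S and M, so the following values describe the members. The median S per cell was 12457 CPM with GFP and 10991 CPM with TBX18. The median M was 353 CPM with GFP and 465 CPM with TBX18, and its 95th percentile was 1300 and 1893 CPM. The summed collagen level was thus somewhat lower and the summed myocyte gene level higher in the TBX18 cells. This did not hold for each gene: the median Col1a2 was 3528 CPM with GFP and 3554 CPM with TBX18, and the median Myh6 41.0 and 38.2 CPM. The median ratio of S to M was 34.4 with GFP and 22.7 with TBX18. Just inside the threshold, from 2 to 2.5 times M, were 18 GFP cells with a median S of 10130 and M of 4815 CPM, and 22 TBX18 cells with 7500 and 3281 CPM. Just outside, from 1.6 to 2 times M, were 47 GFP cells with a median S of 11838 and M of 6654 CPM, and 24 TBX18 cells with 8847 and 4720 CPM. Most members lay far from the threshold: S was over 20 times M in 73.0% of the GFP cells and in 54.3% of the TBX18 cells; the TBX18 cells had the greater median depth. Another 2.43% of GFP cells and 6.09% of TBX18 cells lay between 2.5 and 5 times M.

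**Figure D1:**
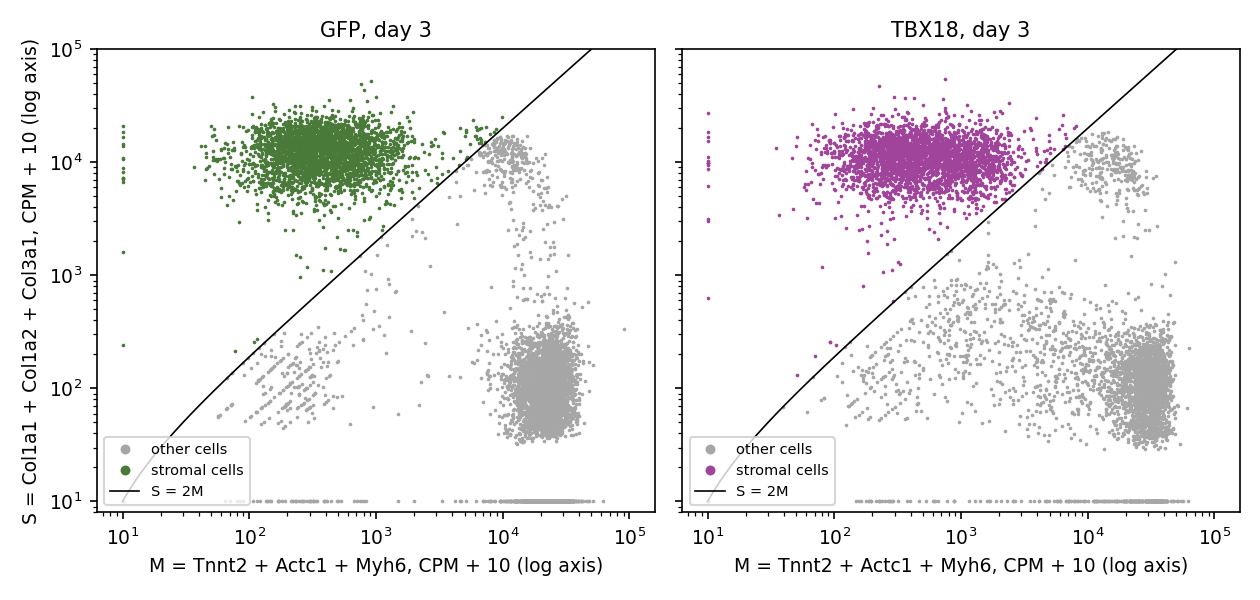
Summed level of the 3 collagen genes (vertical axis, CPM plus 10, log scale) against that of the 3 myocyte genes (horizontal axis, CPM plus 10, log scale), 1 point per cell with at least 500 genes, for the GFP and the TBX18 library at day 3. Coloured points above the line are the 2919 and 2922 stromal cells; the TBX18 cloud reaches further right, with a median M of 465 CPM against 353 CPM.

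The levels of most genes in stromal cells were close in the 2 libraries. Over the 4348 genes whose mean over both libraries reached 20 CPM, the log2 ratio of TBX18 over GFP had a median of -0.08 and a standard deviation (SD) of 0.34 over genes, where counting error alone would give an SD of 0.032. With 0.5 CPM added to each level, 123 genes (2.83%) were at least 1.5-fold higher with TBX18 and 199 (4.58%) at least 1.5-fold lower, 322 in all (7.41%). At least 2-fold differences were found for 43 higher and 41 lower genes. The balance between the directions moved with the scaling: with median-of-ratios factors 150 genes were higher and 148 lower, and with TMM factors, a trimmed mean, 150 and 149. In myocyte cells (M over 2 times S) of the same 2 libraries the SD over 4146 genes was 0.64, with 409 genes at least 1.5-fold higher and 545 lower.

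**Figure D2:**
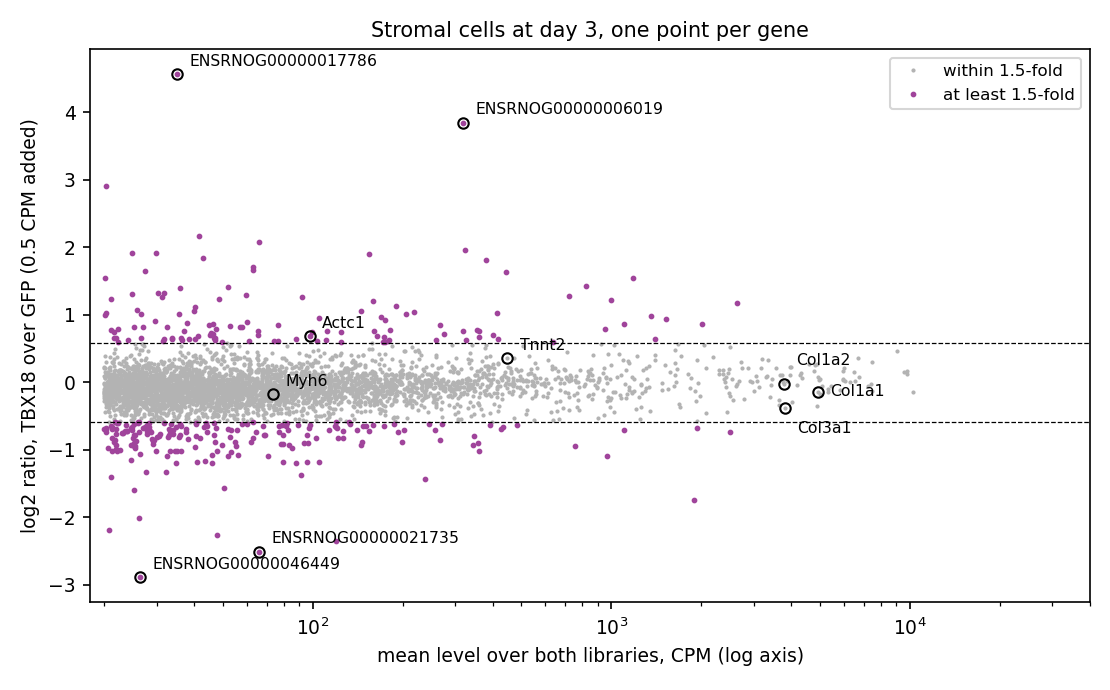
Log2 ratio of TBX18 over GFP in stromal cells at day 3 (vertical axis, 0.5 CPM added) against the mean level over both libraries (horizontal axis, CPM, log scale), 1 point per gene over 4348 genes, with dashed lines at 1.5-fold. Coloured points are the 123 higher and 199 lower genes; the collagen genes lie at the high end of the levels and within 1.5-fold, with Col1a2 next to 0, where its sign turns with the scaling.

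The 2 genes ranked highest by the end of the interval nearest to 0 were ENSRNOG00000006019 and ENSRNOG00000017786. ENSRNOG00000006019 was at 41.0 CPM in the GFP cells and 597 CPM in the TBX18 cells, a 14.6-fold difference (log2 3.86, 3.81 to 3.92). After each cell was thinned to 5000 UMIs, it was detected in 13.1% of GFP and 64.5% of TBX18 stromal cells. The share of cells that free RNA alone would give was not measured for this gene. Its levels in myocyte cells were close, at 197 CPM with GFP and 262 CPM with TBX18. With TBX18 the stromal level was 228% of the myocyte level, and with GFP it was 20.8%.

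ENSRNOG00000017786 was at 2.39 CPM in the GFP cells and 67.8 CPM in the TBX18 cells, a 28.3-fold difference (log2 4.83, 4.61 to 5.05). Without the 75 GFP and 103 TBX18 stromal cells above the mark of the top 6% of doublet scores, it was at 2.22 CPM with GFP and 16.9 CPM with TBX18, 7.59-fold (log2 2.92, 2.69 to 3.17), and with 5 CPM added to each level the log2 ratio was 3.30. This gene was held by few stromal cells: 0.862% of thinned GFP cells and 8.20% of thinned TBX18 cells had a UMI, and 5% of the TBX18 cells held 84.5% of its UMIs. It was far higher in myocyte cells, at 220 CPM with GFP and 2277 CPM with TBX18. The stromal level was 1.09% of the myocyte level with GFP and 2.98% with TBX18.

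Of the genes that were lower, ENSRNOG00000046449 was at 46.8 CPM with GFP and 5.88 CPM with TBX18, 7.96-fold lower (log2 -2.99, -3.13 to -2.86). Myocyte cells held next to none of it, 28 UMIs in the GFP and 9 in the TBX18 library. Its share of thinned stromal cells was 16.0% with GFP and 2.86% with TBX18. ENSRNOG00000021735 was at 113 CPM with GFP and 19.4 CPM with TBX18, 5.81-fold lower (log2 -2.54, -2.61 to -2.46). It was also lower in the myocyte cells of the TBX18 library, at 4.49 CPM against 24.7 CPM. Thinned stromal cells with a UMI were 32.3% with GFP and 8.68% with TBX18. Unthinned, the shares for the 4 genes were 36.2% and 84.9% for ENSRNOG00000006019, 4.08% and 32.6% for ENSRNOG00000017786, 36.8% and 10.3% for ENSRNOG00000046449, and 63.5% and 24.8% for ENSRNOG00000021735, with GFP first. Thinning left out 18 GFP and 19 TBX18 stromal cells that were shallower.

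**Figure D3:**
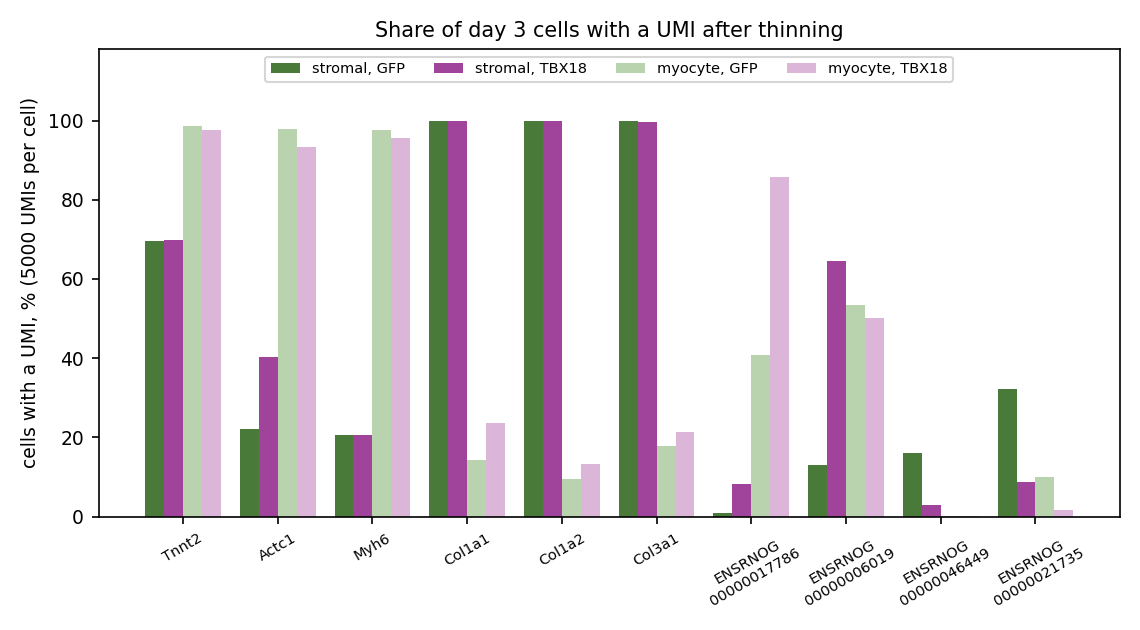
Share of day 3 cells with a UMI of each gene after thinning to 5000 UMIs per cell (vertical axis, percent, 1 bar per library and class), for the 6 genes of the rule and 4 named IDs. ENSRNOG00000006019 stands at 13.1% of GFP and 64.5% of TBX18 stromal cells, and Actc1 at 22.1% and 40.4%, while Tnnt2 and Myh6 have nearly equal bars.

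The genes past 1.5-fold were set beside all tested genes for the class that holds them. In the GFP library of day 14, which the comparison did not use, 1199 of 3753 tested genes with at least 20 CPM (31.9%) were at least 2-fold higher in stromal than in myocyte cells. Among the genes higher with TBX18 this held for 56 of 112 (50%), and among those lower for 51 of 108 (47.2%). The limit on level kept 3753 of 4348 tested genes and 112 of 123 higher genes. It kept 108 of 199 lower genes, so these shares leave out many of the lower genes. Genes at least 2-fold higher in myocyte cells made up 10.7% of all tested, 17.9% of those higher and 13.9% of those lower. Many of the lower genes were held by few cells: for 35.2% of them, and for 2.21% of all tested genes, 5% of the TBX18 stromal cells held over 50% of the UMIs. In the GFP cells, where these genes were higher, the shares were 18.6% and 1.56%. For the genes higher with TBX18 they were 8.94% in TBX18 and 10.6% in GFP cells. None of these shares was matched for level. A gene called lower has few UMIs in TBX18 cells by the call itself, and a few cells then hold more of them. The median share of thinned TBX18 cells with a UMI was 9.96% for the lower genes and 22.4% for all tested genes. Part of the 35.2% was thus given in advance.

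The 6 genes of the rule are described without further reading, since they chose the cells. Among the collagen genes, Col3a1 was at 4308 CPM with GFP and 3313 CPM with TBX18, a log2 ratio of -0.38 (-0.39 to -0.37); 11.3% of tested genes had a lower ratio. Col1a1 was at 5157 and 4663 CPM (log2 -0.15, -0.15 to -0.14). Col1a2 was at 3817 and 3755 CPM (log2 -0.02, -0.03 to -0.02), and its ratio turned to 0.06 with either other scaling. None of the 3 reached 1.5-fold. In myocyte cells, which hold these RNAs at low levels, the ratios had the other sign: Col1a1 was at 60.8 CPM with GFP and 192 CPM with TBX18, Col1a2 at 45.0 and 134 CPM, and Col3a1 at 63.5 and 124 CPM.

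The myocyte genes differed in direction in the stromal cells. Actc1 was at 74.7 CPM with GFP and 120 CPM with TBX18, 1.61-fold higher (log2 0.69, 0.64 to 0.73). Its share of thinned stromal cells was 22.1% with GFP and 40.4% with TBX18. Tnnt2 was at 393 and 504 CPM (log2 0.36, 0.34 to 0.38), with a UMI in 69.5% and 69.8% of thinned cells. Myh6 was at 78.2 and 68.9 CPM (log2 -0.18, -0.23 to -0.13), with a UMI in 20.7% and 20.5% of thinned cells, and its ratio turned to 0.038 with S over 5 times M. In myocyte cells Actc1 was at 5218 CPM with GFP and 12665 CPM with TBX18, Tnnt2 at 10123 and 6066 CPM, and Myh6 at 6514 and 6040 CPM. Tnnt2 thus had opposite signs in the 2 classes of the same libraries. The tables give Tnnt2 and Col3a1 fractional values in some cells, so the deposited counting may have split their reads with other genes.

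The mix of the 3 myocyte genes also differed between the classes. Tnnt2 made up 72.0% of the M UMIs in GFP and 72.7% in TBX18 stromal cells, against 46.3% and 24.5% in myocyte cells. Actc1 made up 13.7% and 17.4% in stromal cells, against 23.9% and 51.1% in myocyte cells. The rule limits M in stromal cells, so these shares are a description, and the source of the UMIs was not tested.

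Stricter limits on M separated the genes. In cells with S over 10 times M (2647 GFP and 2284 TBX18 cells), Actc1 was at 46.7 CPM with GFP and 102 CPM with TBX18, a log2 ratio of 1.13 (1.07 to 1.19). In the same cells Tnnt2 was at 289 and 292 CPM (log2 0.01, -0.01 to 0.04). With S over 20 times M (2132 and 1588 cells), Actc1 stayed at 44.4 and 97.5 CPM, while Tnnt2 was at 222 and 170 CPM and its log2 ratio was -0.38 (-0.42 to -0.34). These limits use M itself, of which Tnnt2 is the main part. ENSRNOG00000017786 was at 1.603 and 21.6 CPM in cells over 10 times M and at 1.36 and 15.0 CPM in cells over 20 times M, against 2.39 and 67.8 CPM in all members. The difference was 13.5-fold and 11.1-fold under these limits, above the 7.59-fold found without the cells of high doublet score. ENSRNOG00000006019 kept its levels, at 42.8 CPM with GFP and 614 CPM with TBX18 over 20 times M.

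**Figure D4:**
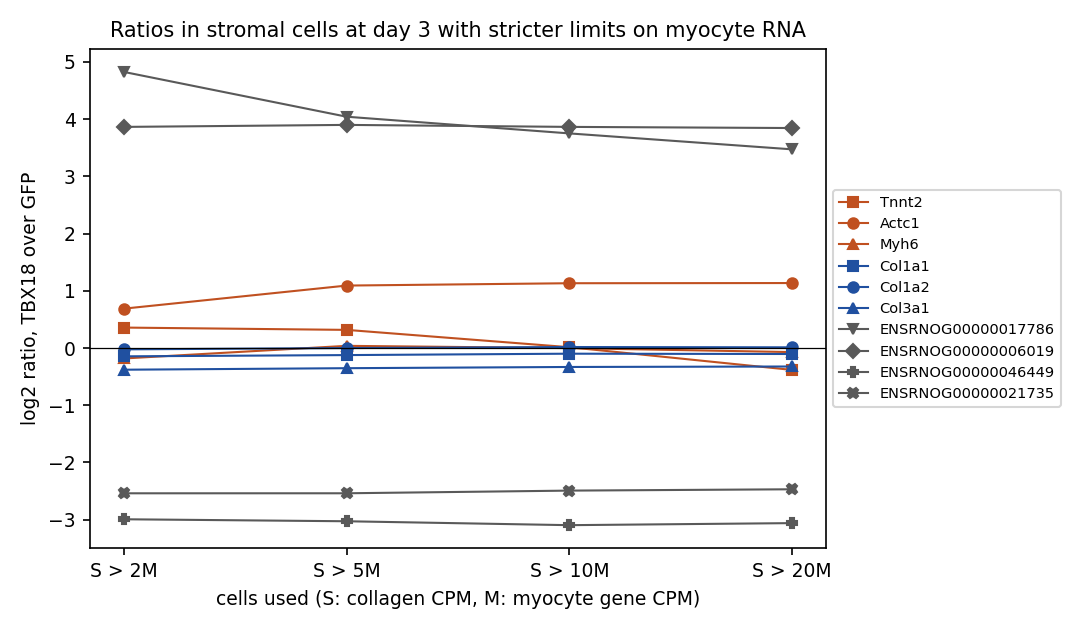
Log2 ratio of TBX18 over GFP in stromal cells at day 3 (vertical axis) with 4 limits on the ratio of collagen to myocyte gene level (horizontal axis, from S over 2 times M to S over 20 times M), 1 line per gene. Tnnt2 goes from 0.36 to -0.38 and Actc1 from 0.69 to 1.14, while ENSRNOG00000006019 and the 2 lower IDs hardly move; Col1a2 stays next to 0 and turns sign.

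Virus features checked the labels and were at lower levels in stromal than in myocyte cells. EGFP was at 7.19 CPM (6.60 to 7.81) in GFP stromal cells and 92.9 CPM in GFP myocyte cells, 12.9-fold higher in the myocyte cells. A UMI was found in 243 stromal cells (8.32%, 7.35 to 9.39) and in 52.7% of myocyte cells, at median depths of 24535 and 22335 UMIs. In the TBX18 library, ZsGFP was at 7.52 CPM (6.95 to 8.11) in stromal and 54.0 CPM in myocyte cells, with a UMI in 142 stromal cells (4.86%, 4.11 to 5.70) and in 32.2% of myocyte cells. The feature hTBX18, read here as the TBX18 transgene from its name, was at 2.27 CPM (1.96 to 2.60) in stromal and 22.1 CPM in myocyte cells. It was found in 120 stromal cells (4.11%, 3.42 to 4.89) and in 28.3% of myocyte cells, at median depths of 28102.5 and 29999 UMIs. After thinning, the stromal shares were 1.96% for EGFP, 1.62% for ZsGFP and 0.999% for hTBX18, against 24.99%, 13.4% and 8.37% in myocyte cells. The features of the other virus had 0 UMIs in the stromal cells of either library, which allows a share of cells with a UMI of up to 0.103% (3 counts). The share that free RNA alone would give was not measured, as every class had been exposed to virus.

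The virus RNA was unevenly spread over stromal cells. The top 10 cells held 57.5% of the stromal UMIs of ZsGFP, 29.5% of those of hTBX18 and 28.0% of those of EGFP. For ZsGFP there were up to 73 UMIs in a cell, and 24 cells had at least 5. For hTBX18 the highest cell had 13 UMIs and 7 cells had at least 5, and for EGFP 16 cells had at least 5. Both transgenes of the TBX18 virus were seen together: 52 of 120 stromal cells with hTBX18 (43.3%, 34.3 to 52.7) also had ZsGFP, against 90 of 2802 without it (3.21%, 2.59 to 3.93). The cells with hTBX18 were deeper, at a median of 39499 against 27891 UMIs. For each 1000 UMIs of the 3 myocyte genes, stromal cells held 13.2 EGFP UMIs and myocyte cells 4.25 in the GFP library. In the TBX18 library these values were 10.8 and 2.18 for ZsGFP and 3.27 and 0.893 for hTBX18. Both classes were chosen by M, which the rule keeps low in stromal cells, so these values are a description. The source of the virus RNA was not tested.

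**Figure D5:**
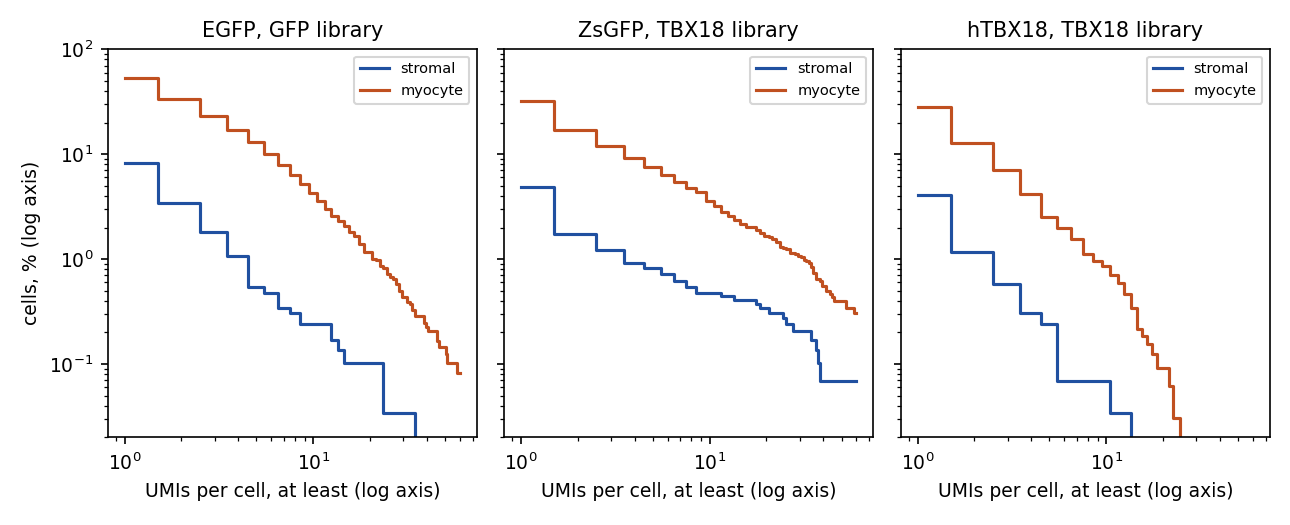
Share of day 3 cells with at least the given number of UMIs of a virus feature (vertical axis, percent, log scale) against that number (horizontal axis, log scale), for stromal and myocyte cells of the library that carries the feature. At 1 UMI the stromal lines start at 8.32%, 4.86% and 4.11%, and the ZsGFP line has the longest tail, with 10 stromal cells at 20 UMIs or more.

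Stromal cells with a transgene UMI were set against cells of the same library without one, each paired with the unpaired cell closest in depth. In the GFP library 243 cells with EGFP gave 38 genes (0.824%) at least 1.5-fold higher and 47 (1.02%) lower among 4613. In the TBX18 library 210 cells with ZsGFP or hTBX18 gave 161 genes (3.66%) higher and 68 (1.55%) lower among 4400. In both libraries the cells with a transgene UMI, taken as a sum, held more RNA of the 3 myocyte genes, which are part of the rule. The median M per cell was closer, at 394 against 367 CPM with TBX18 and 324 against 317 CPM with GFP. With TBX18, Myh6 was at 200.2 CPM against 57.7 CPM, Tnnt2 at 637 against 396 CPM, and Actc1 at 204 against 108 CPM. With GFP, Myh6 was at 182 against 102 CPM, Tnnt2 at 509 against 431 CPM, and Actc1 at 163 against 89.0 CPM. With S over 10 times M, the genes were 70 (1.6%) higher and 64 (1.47%) lower for the 159 cells of the TBX18 library, and 19 (0.414%) and 42 (0.916%) for the 217 cells of the GFP library. For these cells over their pairs, Tnnt2 had log2 ratios of -0.02 (-0.13 to 0.08) with TBX18 and 0.08 (-0.02 to 0.17) with GFP. Actc1 had 0.06 (-0.10 to 0.22) and -0.13 (-0.36 to 0.09), in the same order. Myh6 stayed higher with TBX18, at 0.82 (0.60 to 1.05), and was at -0.15 (-0.38 to 0.08) with GFP. What part myocyte RNA has in the counts of genes was not tested.

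The 2 genes with the highest ratios went different ways in these pairs. ENSRNOG00000017786 was at 430 CPM in the TBX18 stromal cells with a transgene UMI and 49.2 CPM in those without. With S over 10 times M it was at 87.9 and 15.1 CPM. In the GFP library it was higher with a transgene UMI too, at 6.52 and 1.94 CPM (54 and 16 UMIs, log2 1.75, 0.93 to 2.66). There, with S over 10 times M, it had 10 and 14 UMIs. ENSRNOG00000006019 was at 430 CPM in TBX18 stromal cells with a transgene UMI and 521 CPM in those without, so it was high in both. The lower genes were low in both too: ENSRNOG00000046449 was at 3.755 and 3.999 CPM, and ENSRNOG00000021735 at 16.5 and 21.2 CPM. The 2712 TBX18 and 2676 GFP stromal cells without any transgene UMI were 92.8% and 91.7% of the stromal cells. Between them the comparison of the libraries gave 121 genes higher and 199 lower, and 113 and 192 of the reported genes were among them. As most cells are shared, a large overlap was given in advance. Absence of a transgene UMI does not show that a cell was uninfected.

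Among the collagen genes, Col1a1 was at 5534 CPM in TBX18 stromal cells with a transgene UMI and 4940 CPM in those without (log2 0.16, 0.14 to 0.18), and Col3a1 at 3494 and 3157 CPM (log2 0.15, 0.12 to 0.17). Col1a2 differed least in the TBX18 library, at 4111 and 3922 CPM (log2 0.07, 0.05 to 0.09). In the GFP library Col1a1 was at 5814 and 5854 CPM (log2 -0.01, -0.03 to 0.01) and Col3a1 at 4284 and 4507 CPM (log2 -0.07, -0.09 to -0.05). Col1a2 was there at 4164 and 4149 CPM (log2 0.005, -0.017 to 0.027). These genes are part of the rule, and the values are a description of 1 library each.

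At day 14, in libraries with no cell or library in common with day 3, the same rule took 4219 stromal cells with GFP and 7027 with TBX18. Those tables were deposited on a log scale and cover a narrower range of genes per cell, so levels at the 2 times are not compared. Of 5260 genes at day 14, 379 (7.21%) were at least 1.5-fold higher and 130 (2.47%) lower with TBX18, 509 in all (9.68%), and the median log2 ratio was 0.13. With median-of-ratios scaling 247 were higher and 232 lower, and with TMM scaling 247 and 231, so the excess of higher genes and the overlaps below hold for scaling by the total. Over the 3964 genes tested at both times, the day 3 and day 14 ratios had a Pearson's r of -0.09 and a Spearman's rho of -0.07 across genes. These 3964 genes held 115 of the 123 genes higher at day 3 and 125 of the 199 lower ones, so many lower genes are left out. Of 115 genes higher at day 3, 21 (18.3%) were higher at day 14 and 21 lower. Those were 9.38% of the genes higher and 25% of the genes lower at day 14. Of 125 genes lower at day 3, 25 (20%) were higher and 13 (10.4%) lower at day 14, which were 11.2% and 15.5% of the day 14 genes of that direction. Over all 3964 genes 5.65% were higher and 2.12% lower at day 14, which is the background for the shares of day 3 genes. The background for the shares of day 14 genes is the 115 higher and 125 lower genes of day 3 among the 3964.

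The day 14 values of the named genes follow. ENSRNOG00000006019 was higher with TBX18 at both times, at day 14 with 193 CPM with GFP and 341 CPM with TBX18 (log2 0.82, 0.79 to 0.85). ENSRNOG00000017786 was at 18.4 and 17.9 CPM (log2 -0.04, -0.14 to 0.06). The 2 lower IDs were higher with TBX18 at day 14: ENSRNOG00000021735 was at 128 CPM with GFP and 294 CPM with TBX18, and ENSRNOG00000046449 at 10.6 and 21.8 CPM. Actc1, higher with TBX18 at day 3, was at 356 CPM with GFP and 171 CPM with TBX18 at day 14 (log2 -1.05, -1.08 to -1.03), and Myh6 was at 364 and 137 CPM. The collagen genes stayed within 1.5-fold at day 14, with log2 ratios of -0.17 for Col1a1, -0.26 for Col1a2 and -0.04 for Col3a1.

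Stromal cells of the 2 day 3 libraries lay apart in expression space. Among the 20 nearest neighbours of a stromal cell, over 30 principal components of 2000 variable genes without the virus features, 9.10% came from the other library, where full mixing would give 50.03%. For 57.5% of the cells all 20 neighbours came from their own library. After the 322 genes past 1.5-fold were left out as well, the neighbours from the other library were 15.4%, and 31.7% of cells had none. What sets the 2 libraries apart among the remaining genes was not tested.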

How the data were processed

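Single-cell RNA libraries of cultured rat ventricular cells were analysed, 1 per group (GFP and TBX18 at day 3, GFP and TBX18 at day 14). The labels name a 3' v3.1 droplet kit and an Illumina NovaSeq. STAR 2.7.8a, Partek and the genome build Rnor_6.0 are named, without their roles, per the submitters' processing notes. The authors' day 3 tables hold estimated counts (UMIs per cell and gene), of which 99.7% were whole within 0.05. The day 14 tables were deposited as log2 of CPM plus 1 per cell, and UMIs were recovered by reading each cell's most frequent nonzero value as 1 UMI. The design had assumed counts at day 14. How the authors filtered cells and genes is not given in the sources used here.

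Cells with at least 500 genes were kept: 8128 of 8859 barcodes with GFP and 6489 of 6781 with TBX18 at day 3, holding 202024200 and 195883820 UMIs over all barcodes. Counts were summed over the stromal cells of a library and expressed as CPM. Ratios of sums carry exact conditional intervals and shares Clopper-Pearson intervals, at 95%, for counting error only. A gene counts as higher or lower at 1.5-fold or more with 0.5 CPM added, over genes whose mean reached 20 CPM. Of 4348 such genes, 108 had fractional values. The rule has no doublet step. Scrublet's automatic threshold marked 0.0615% of the GFP and 3.56% of the TBX18 library, too few in the former to have worked, so doublets were left out in an alternative by the mark of the top 6% of scores. Python 3.11.15, numpy 2.4.6, scipy 1.17.1, scikit-learn 1.9.0 and scanpy 1.11.5 were used. Scripts were tested on simulated counts.

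The cells, gene lists and rules were chosen with earlier results of these data known. Named genes were to be the 20 with the highest and the 20 with the lowest ratio, ranked by the interval end nearest to 0, the strongest members of fixed gene lists, the genes of the rule and the virus features. As 0 of 15240 IDs could be named, the gene lists, cell type markers and Tbx18 itself were not read, and 2 IDs in each direction are printed. The third day 14 library, with A83-01, enters the count of all cells alone.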

Additional observations from a re-analysis of the deposited data

Results flagged for a closer look

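Several named genes had ratios of TBX18 over GFP with opposite signs in stromal cells at day 3 and in another class or time, with counting intervals on either side of 0. Each value comes from 1 library per group, and the difference between the 2 ratios was not tested. Between stromal and myocyte cells at day 3, Tnnt2 had log2 ratios of 0.36 and -0.74, Col1a1 of -0.15 and 1.66, Col1a2 of -0.024 and 1.57, and Col3a1 of -0.38 and 0.97. Both ratios of such a pair come from the same 2 libraries. All of these genes are part of the rule that chose the 2 classes, so the signs are a description. Between day 3 and day 14 in stromal cells, Tnnt2 had log2 ratios of 0.36 and -0.31, Actc1 of 0.69 and -1.05, ENSRNOG00000046449 of -2.99 and 1.04, and ENSRNOG00000021735 of -2.54 and 1.20. These pairs share no library, and Tnnt2 and Actc1 are genes of the rule at both times. ENSRNOG00000046449 was under the minimum mean of 20 CPM at day 14. The stromal sign of Tnnt2 turned with a stricter limit on M, and that of Col1a2 with a stricter limit or another scaling.

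Virus RNA was also found in barcodes that the minimum of 500 genes leaves out. They held 4 EGFP UMIs in the 731 such barcodes of the GFP library and 5 ZsGFP UMIs in the 292 of the TBX18 library.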

How the results depend on the processing

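Calls of 1.5-fold in stromal cells at day 3 changed by less than 1.5 times with limits of S over 5, 10 or 20 times M, the gene range of day 14, doublets left out, transgene-positive cells left out, cell means, thinning, pseudocounts, scaling, or genes with fractional values left out. The count of 123 higher and 199 lower genes was 243 and 406 with a minimum of 5 CPM, 49 and 44 with 100 CPM, 513 and 728 with no minimum, and 43 and 41 at 2-fold, where fewer or more genes are tested or the threshold is stricter. Scaling by median-of-ratios or TMM kept 148 and 149 of the lower genes. The stromal share was 34.8% with GFP and 41.9% with TBX18 for S over 5 times M, and 37.8% and 46.3% for S over M. Thinning brought the shares of stromal cells with a UMI to 1.96% for EGFP, 1.62% for ZsGFP and 0.999% for hTBX18. At day 14, the 379 higher and 130 lower genes became 247 and 232 with median-of-ratios and 247 and 231 with TMM scaling, 119 and 64 with 100 CPM, and 139 and 31 at 2-fold. Neighbours from the other library were 15.4% without the called genes. With S over 10 times M, genes higher in cells with a transgene UMI were 19 for GFP and 70 for TBX18; the cause was not tested. For the ratios of single named genes, 49 of 120 alternatives stayed inside the counting interval, 65 moved outside it with the same sign and 6 turned sign. Signs turned for Tnnt2 with S over 20 times M (-0.38), Myh6 with S over 5 times M (0.038), and Col1a2 with S over 10 (0.017) or 20 (0.012) times M and with median-of-ratios (0.061) or TMM (0.059) scaling. Limits of S over 20 times M, genes without fractional values, and the alternatives for neighbours, transgene pairs and day 14 were chosen after seeing the data. Alternatives by Ptprc, Cd68, Pecam1, Cdh5, Tek, Mki67 or Top2a and by mitochondrial and ribosomal genes were not run, as no ID could be named. No paired analysis was possible because each group has 1 library. Depth limits the shares of stromal cells with a transgene UMI, since the median stromal cell with one held a single UMI.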
